A study of Mus musculus with 3 samples.

Results

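The insulin-like growth factor (IGF) axis was described in EpH4-PR cells, which are mouse mammary epithelial cells of the line EpH4 that the study had transfected with the A isoform of the progesterone receptor (PR-A). Its members were the ligands Igf1 and Igf2, the receptors Igf1r and Igf2r, and the binding proteins Igfbp2, Igfbp3, Igfbp4, Igfbp5, Igfbp6 and Igfbp7. Every non-control array probe named for one of these 10 genes was taken, which gave 16 of the 41174 probes measured and 10 of the 29273 gene names they carry. Total RNA of EpH4-PR cells, grown in DMEM with fetal bovine serum and not yet confluent, was labelled with Cy5 on 3 Agilent arrays. A commercial mouse reference RNA (Stratagene mouse standard) was labelled with Cy3 on every array, without a dye swap, so that a dye effect specific to a probe cannot be told apart from a difference in RNA. Clones were selected after transfection, and whether the 3 arrays hold separate cultures is not given in the sources used here, so that the spread between arrays may be technical. EpH4-EV cells, the line with the empty vector, were not analysed here. Each ratio is therefore a level in EpH4-PR RNA relative to reference RNA, and no effect of the receptor was measured.

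Igf1 and Igf2 are secreted ligands that bind the tyrosine kinase receptor Igf1r, which signals through the PI3K and MAPK branches to growth and survival. Igf2r has no kinase and carries Igf2 to the lysosome, while the Igfbp proteins hold the ligands outside the cell and either limit or prolong their action. In the mammary gland, Igf1 takes part in duct growth and is known to be made largely by the stroma, and Igfbp5 is known for its rise during involution.

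The called probes of the axis lay on both sides of the reference RNA, 1 higher and 5 lower, and the other 10 were not called. Relative to the reference RNA, EpH4-PR RNA held 2.67-fold more Igfbp7, whereas Igfbp2 and Igfbp6 were 5.03-fold and 4.90-fold lower. Among genes with several probes, 1 probe each of Igf1, Igf2 and Igfbp4 was called, at 3.04-fold, 3.05-fold and 2.80-fold lower. Igf1r was not called, at a log2 ratio of -0.02 whose sign changed with the processing. Igf2r was 1.57-fold higher and not called, though median centring took it past the limit for a call. Calls required a limma p, adjusted by Benjamini-Hochberg over all probes, below 0.05 together with a log2 ratio 1 or more from 0. By this rule 1 of the 16 probes was higher (6.25%) and 5 were lower (31.2%). The same rule called 2.26% of all 41174 probes higher and 3.83% lower, 6.1% in either direction. The median log2 ratio was -0.48 over the 16 probes and -0.01 over all probes. By the adjusted p alone 3 probes were higher and 10 lower, against 25.7% and 24.6% of all probes.

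**Figure D1:**
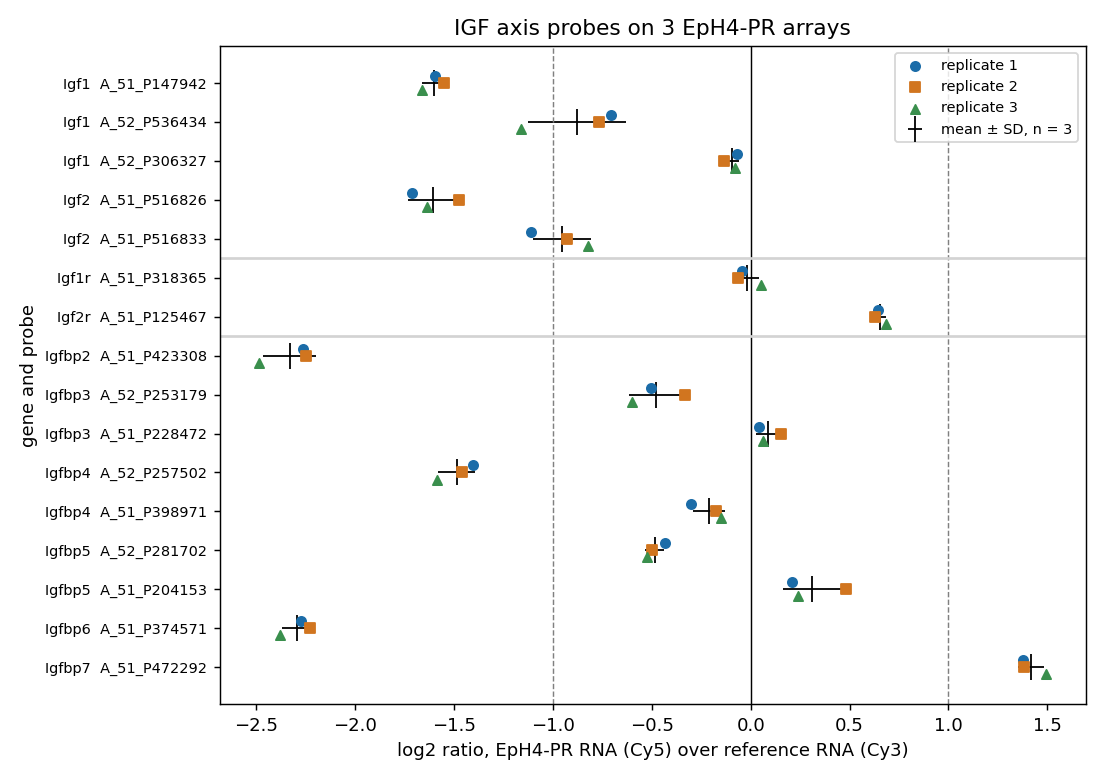
Log2 ratio of EpH4-PR RNA (Cy5) over reference RNA (Cy3) for the 16 probes of the axis, with 1 symbol per array and the mean ± SD over 3 arrays as a black bar. Dashed lines mark a log2 ratio of 1 either way, and grey lines separate ligands, receptors and binding proteins. Igfbp7 is the only probe right of the dashed lines, and Igfbp2 (-2.33) and Igfbp6 (-2.29) lie farthest left.

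The promoters of Igfbp7, Igfbp2 and Igfbp6 are shown, since these are the genes whose every probe was called, and promoters are where transcription starts. Each run has 250 bases before and 50 bases after a transcription start, on the strand of the gene, from RefSeq on GRCm38.p6, and all 10 genes had at least 1 such window. Capitals mark matches on either strand to the progesterone response element hexamer TGTTCT, the specificity protein box GGGCGG and the core promoter box TATAAA, and a match on the opposite strand appears as its reverse complement. The arrays did not measure these windows.
Igfbp7 (chr5:77407996-77408295, minus strand): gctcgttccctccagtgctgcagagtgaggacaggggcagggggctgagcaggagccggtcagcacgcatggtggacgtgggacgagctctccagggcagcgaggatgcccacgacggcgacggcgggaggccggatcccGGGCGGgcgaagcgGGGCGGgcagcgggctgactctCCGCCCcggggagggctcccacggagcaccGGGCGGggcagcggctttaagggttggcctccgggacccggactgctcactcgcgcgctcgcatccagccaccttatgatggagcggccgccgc
Igfbp2 (chr1:72824230-72824529, plus strand, the first of 2 starts): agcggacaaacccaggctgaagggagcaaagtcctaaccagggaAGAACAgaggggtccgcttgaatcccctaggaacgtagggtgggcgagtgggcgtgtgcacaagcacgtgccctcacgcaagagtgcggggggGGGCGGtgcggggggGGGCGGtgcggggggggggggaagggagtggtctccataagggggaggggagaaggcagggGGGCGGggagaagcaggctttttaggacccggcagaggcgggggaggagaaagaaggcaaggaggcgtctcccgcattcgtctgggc
Igfbp6 (chr15:102143936-102144235, plus strand): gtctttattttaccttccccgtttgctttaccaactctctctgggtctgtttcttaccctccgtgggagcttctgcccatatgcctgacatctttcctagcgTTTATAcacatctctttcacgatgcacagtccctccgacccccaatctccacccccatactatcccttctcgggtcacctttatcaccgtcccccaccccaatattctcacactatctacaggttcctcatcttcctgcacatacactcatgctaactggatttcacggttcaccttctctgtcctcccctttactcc

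Igfbp7 and Igfbp2 had GC-rich windows (73.3% and 67% G or C), with 4 and 3 matches to GGGCGG. Igfbp6 had 49.7% G or C, no match to GGGCGG and 1 match to TATAAA, on the opposite strand and 148 bases upstream of the start. Over the 14 windows of the 10 genes, 6 windows of 5 genes (Igf2, Igf1r, Igf2r, Igfbp2 and Igfbp7) held GGGCGG, against 35.7% of all 32851 windows. TGTTCT was found in 2 of the 14 windows, those of Igfbp2 and of 1 start of Igf2, against 19% of all windows. TATAAA was found in 2 of the 14, those of Igfbp4 and Igfbp6, against 13.6% of all windows.

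The depth of an array is given by its signal over background. Over the 3 arrays 71.9% to 75.1% of probes were well above background in EpH4-PR RNA and 79.1% to 80.8% in reference RNA, by the flag of the scanner software. Between arrays, Pearson's r over the ratios of all probes, which are not independent of one another, was 0.923 to 0.952. The 2 probes of Pgr, the progesterone receptor gene, each exceeded background by that flag on 1 array of EpH4-PR RNA, at log2 ratios of -0.11 ± 0.22 and -0.19 ± 0.08 (adjusted p = 0.368 and 0.028 from limma). These probes thus did not show the transfected receptor, and whether they match its sequence is not given in the sources used here. As a check of the cell type on the label, 10 of 12 probes of epithelial genes (Cdh1, Epcam, Krt8, Krt18, claudins and others) were called higher, while Krt19 was lower (log2 ratio -2.62). Of 18 probes of fibroblast genes, 10 were called lower and 0 higher, with Vim lowest at -6.51, although all 10 fibroblast genes had a probe well above background in EpH4-PR RNA on 3 arrays. Their summed intensity above local background was 3311 to 3970 in EpH4-PR RNA and 43964 to 49847 in reference RNA. The summed intensity of the 12 epithelial probes was 93658 to 109823 in EpH4-PR RNA and 11448 to 12382 in reference RNA. Of the 6 basal and myoepithelial genes, 5 had a probe well above background in EpH4-PR RNA on 3 arrays, and of their 12 probes Krt14 was called higher (2.08) and 1 of 4 Acta2 probes lower (-2.01), while another Acta2 probe lay at 0.60. Their summed intensity above local background was 8730.4 to 9130.2 in EpH4-PR RNA and 2331 to 2699 in reference RNA. Blood and macrophage genes had 4 of 17 probes lower, and no adipocyte or endothelial probe was called. Oxtr (myoepithelial), Adipoq (adipocyte), Cdh5 and Tek (endothelial) were not well above background in EpH4-PR RNA on any array. The part of these cell types in the ratios of the IGF axis was not tested, and fewer cells of a type cannot be told apart from less RNA per cell.

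Igf1, the ligand of Igf1r, had 3 probes. The log2 ratio of probe A_51_P147942 was -1.60 on replicate 1, -1.55 on replicate 2 and -1.66 on replicate 3, averaging -1.60 ± 0.06 (SD over 3 arrays) with a limma-adjusted p of 2.83e-05. Its spot read 87.3, 98.8 and 76.5 in EpH4-PR RNA and 230, 232 and 191 in reference RNA, and the channels are not on one scale before normalization. All 3 arrays were below 0 after it. The median local background of an array lay between 39 and 43, and the 95th percentile of negative control spots was 85.9, 87.4 and 62.9 in the EpH4-PR channel. On each array the Igf1 spot in EpH4-PR RNA thus lay just above that percentile, although it was flagged well above background on all 3. Probe A_52_P536434 gave -0.70, -0.77 and -1.16 (mean -0.88 ± 0.25, adjusted p = 0.00159), with replicate 3 below the other arrays, and was not called. The third probe, A_52_P306327, is annotated to a cDNA clone of unknown product and was not well above background in EpH4-PR RNA on any array and in reference RNA on only 1. Its measured ratio was -0.09 ± 0.03 (adjusted p = 0.126), with a 95% interval of -0.20 to 0.02, and no fold is given for it.

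Igf2, the fetal growth ligand, is expressed from the paternal allele in most tissues. Probe A_51_P516826 read 139, 130 and 101 in EpH4-PR RNA and 298, 254 and 216 in reference RNA. Its log2 ratio was -1.71, -1.47 and -1.64, averaging -1.61 ± 0.12 (SD over 3 arrays) with a limma-adjusted p of 5.05e-05. Probe A_51_P516833 gave -1.11, -0.93 and -0.82 (mean -0.96 ± 0.15, adjusted p = 0.000301). It was lower than the reference RNA on all 3 arrays but missed the limit of 1 log2 unit, which it passed without replicate 3 (-1.02, adjusted p = 0.000572). The probes of Igf2 thus shared their direction and differed in size, by 0.65 ± 0.14 log2 units within an array (SD, n = 3). The 2 probes of H19, the noncoding RNA gene beside Igf2, exceeded background in each channel of every array and lay at 0.04 ± 0.12 and -0.01 ± 0.08 (adjusted p = 0.59 and 0.898 from limma). The latter was not brighter than the 95th percentile of negative control spots in reference RNA on any array.

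Igf1r, the signalling receptor, had a single probe, A_51_P318365, which exceeded background in each channel of every array. It read 372, 376 and 371 in EpH4-PR RNA and 236, 237 and 196 in reference RNA. After normalization the log2 ratio was -0.05, -0.07 and 0.05, averaging -0.02 ± 0.06 (SD over 3 arrays) with a limma-adjusted p of 0.741 with a 95% interval of -0.14 to 0.10. The arrays fell on both sides of 0, and the sign was not settled, since median centring in place of loess gave 0.84 and the log ratio of the scanner software 0.0773. Igf2r, which also serves as the mannose 6-phosphate receptor and is maternally expressed in most mouse tissues, was bright, with 3105, 2722 and 3062 in EpH4-PR RNA and 740, 687 and 701 in reference RNA. Its log2 ratio was 0.65, 0.63 and 0.69, averaging 0.65 ± 0.03 (SD over 3 arrays) with a limma-adjusted p of 0.000222. All 3 arrays were above 0, and 6.05% of all probes had a higher ratio. Median centring raised the Igf2r ratio to 1.99, past the limit of 1 log2 unit. The receptor for insulin, Insr, which can pair with Igf1r in hybrid receptors, lay at -0.01 ± 0.04 (adjusted p = 0.831 from limma). In reference RNA its probe was not brighter than the 95th percentile of negative control spots on any array. Its ratio near 0 therefore does not show an equal level.

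**Figure D2:**
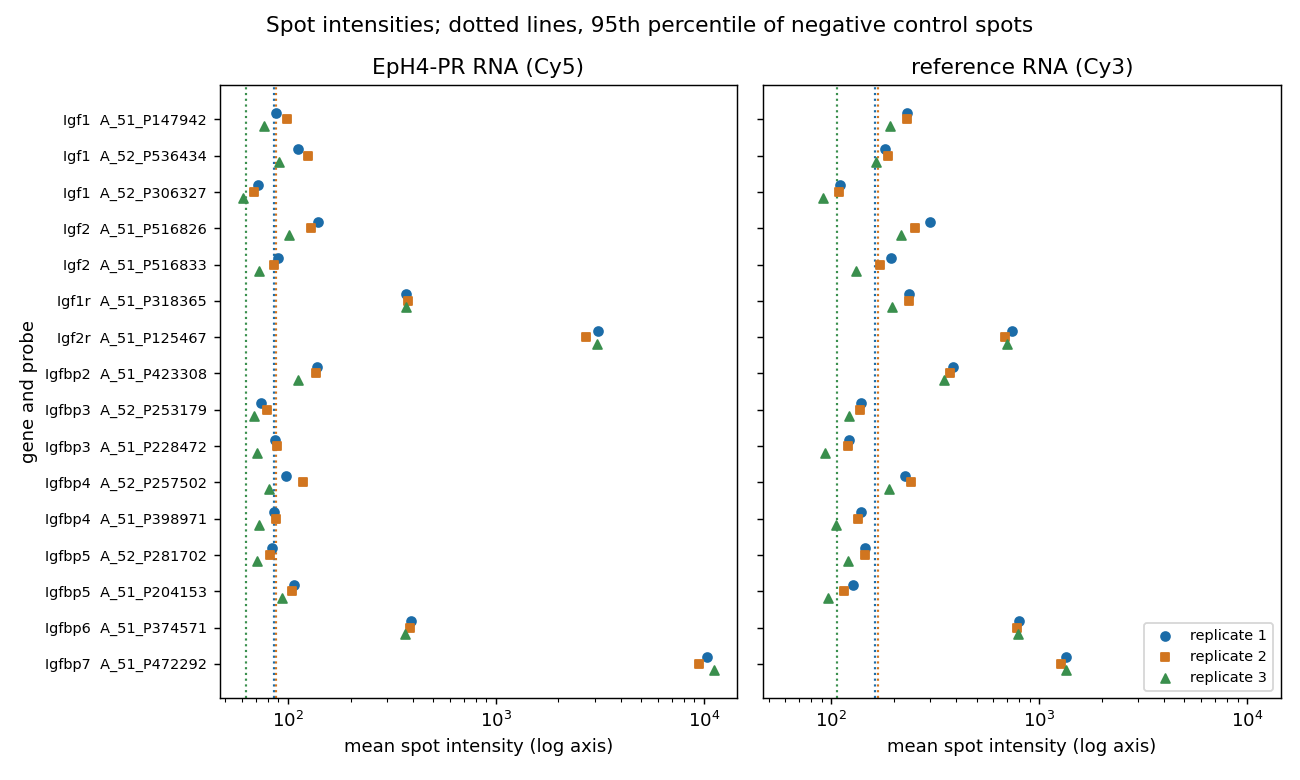
Mean spot intensity on a log axis of the 16 probes in EpH4-PR RNA (left) and reference RNA (right), with 1 symbol per array, before any correction. Dotted lines give the 95th percentile of the negative control spots of each array in its colour, 62.9 to 87.4 on the left and 107 to 168 on the right. Igfbp7, Igf2r and Igfbp6 lie well right of the lines in both channels, and Igf1r does so in EpH4-PR RNA only. Most other probes lie near the lines in EpH4-PR RNA, and the channels are not on one scale before normalization.

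Among the binding proteins, Igfbp7 was the only one called higher. Igfbp7 is a secreted protein that binds the ligands weakly and is found in vessel walls and matrix. Its probe A_51_P472292 read 10335, 9472 and 11160.4 in EpH4-PR RNA and 1341, 1273 and 1340.2 in reference RNA, and no spot was saturated. The log2 ratio was 1.38, 1.38 and 1.49, averaging 1.42 ± 0.07 (SD over 3 arrays) with a limma-adjusted p of 3.76e-05. The arrays lay within 0.12 log2 units of one another, and 0.748% of all probes had a higher ratio. Under median centring the ratio of Igfbp7 was 2.86.

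Igfbp2, a binding protein of fetal tissue and serum, and Igfbp6, which prefers Igf2 over Igf1, lay lowest. The Igfbp2 probe A_51_P423308 read 139, 136 and 111 in EpH4-PR RNA and 386, 371 and 349 in reference RNA. Its log2 ratio was -2.26, -2.25 and -2.49, averaging -2.33 ± 0.13 (SD over 3 arrays) with a limma-adjusted p of 2.59e-05. Replicate 3 was lowest, and 0.636% of all probes had a lower ratio. The Igfbp6 probe A_51_P374571 was brighter than the negative control spots in both channels, with 389, 386 and 365 in EpH4-PR RNA and 801, 780 and 793 in reference RNA. Its log2 ratio was -2.27, -2.23 and -2.38, averaging -2.29 ± 0.08 (SD over 3 arrays) with a limma-adjusted p of 1.81e-05. Igfbp2 and Igfbp6 were well above background in EpH4-PR RNA on all arrays, so that these were measured levels and not bounds. Under median centring the ratio of Igfbp6 was -1.17, still past the limit of 1 log2 unit.

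Igfbp4, an inhibitor of IGF action that is cleaved by Pappa, had probes that differed. Probe A_52_P257502 gave -1.41, -1.46 and -1.59, averaging -1.49 ± 0.09 (SD over 3 arrays) with a limma-adjusted p of 4.45e-05. Probe A_51_P398971 gave -0.30, -0.18 and -0.15, averaging -0.21 ± 0.08 (SD over 3 arrays) with a limma-adjusted p of 0.0214. Within an array they lay 1.27 ± 0.17 log2 units apart (SD, n = 3), which exceeded the spread between arrays. In reference RNA the 95th percentile of negative control spots was 162, 168 and 107. The called probe lay above it on every array, at 225, 242 and 189, and the other below it, at 139, 135 and 106.

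Igfbp5, which binds matrix and is adjacent to Igfbp2 on the chromosome, had probes on both sides of 0. Probe A_51_P204153 gave 0.21, 0.48 and 0.24 (mean 0.31 ± 0.15, adjusted p = 0.0162 from limma), and probe A_52_P281702 gave -0.43, -0.50 and -0.53 (mean -0.49 ± 0.05, adjusted p = 0.000731). No array of the former overlapped one of the latter, and no direction is given for the gene. The former was well above background in reference RNA on 2 of 3 arrays, and on no array above the 95th percentile of negative control spots. The latter was well above background in EpH4-PR RNA on 2 of 3 arrays, so that dim spots limit both ratios. Igfbp3, the main carrier of the ligands in serum and adjacent to Igfbp1, likewise gave 0.04, 0.15 and 0.06 for probe A_51_P228472 (mean 0.09 ± 0.06, adjusted p = 0.175 from limma). In reference RNA that probe was well above background on 1 array, and on no array above the 95th percentile of negative control spots. The other Igfbp3 probe, A_52_P253179, gave -0.50, -0.33 and -0.60 (mean -0.48 ± 0.14, adjusted p = 0.00296 from limma). The latter, with a 95% interval of -0.64 to -0.31, was not well above background in EpH4-PR RNA on any array, and no fold is given for it. A floor was set at the dimmest probe well above background on each array, on values after loess and Aquantile normalization. Raising the dim channel to that floor left the ratio as measured, so that no lower limit is given. Median centring put the former Igfbp3 probe below 0 too, at -0.15. None of the probes of Igfbp3 and Igfbp5 was called. Igfbp1, measured beside the members, was not well above background in EpH4-PR RNA on any array and in reference RNA on 1, with a ratio of -0.12 ± 0.16 (adjusted p = 0.203 from limma), and no fold is given for it.

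Of the 10 genes, 6 had a called probe (Igf1, Igf2, Igfbp2, Igfbp4, Igfbp6 and Igfbp7), and 3 of these had every probe called, each of them with a single probe (Igfbp2, Igfbp6 and Igfbp7). In EpH4-PR RNA 13 of the 16 probes were well above background on all 3 arrays, against 28371 of all 41174 probes. Of the 16, 11 were brighter than the 95th percentile of the negative control spots on all 3. Without background offset the ratios of dim probes moved away from 0. With normexp offset 0 in place of 50 the number of lower probes rose from 5 to 9, and with the log ratio of the scanner software to 10. The 6 called probes kept their call under each of the 14 alternatives that were run. Their sizes did not hold as firmly, since the called Igf1 probe ranged from -3.13 to -1.31, the called Igf2 probe from -2.48 to -1.07, the called Igfbp4 probe from -2.72 to -1.15 and Igfbp2 from -3.29 to -1.61.

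**Figure D3:**
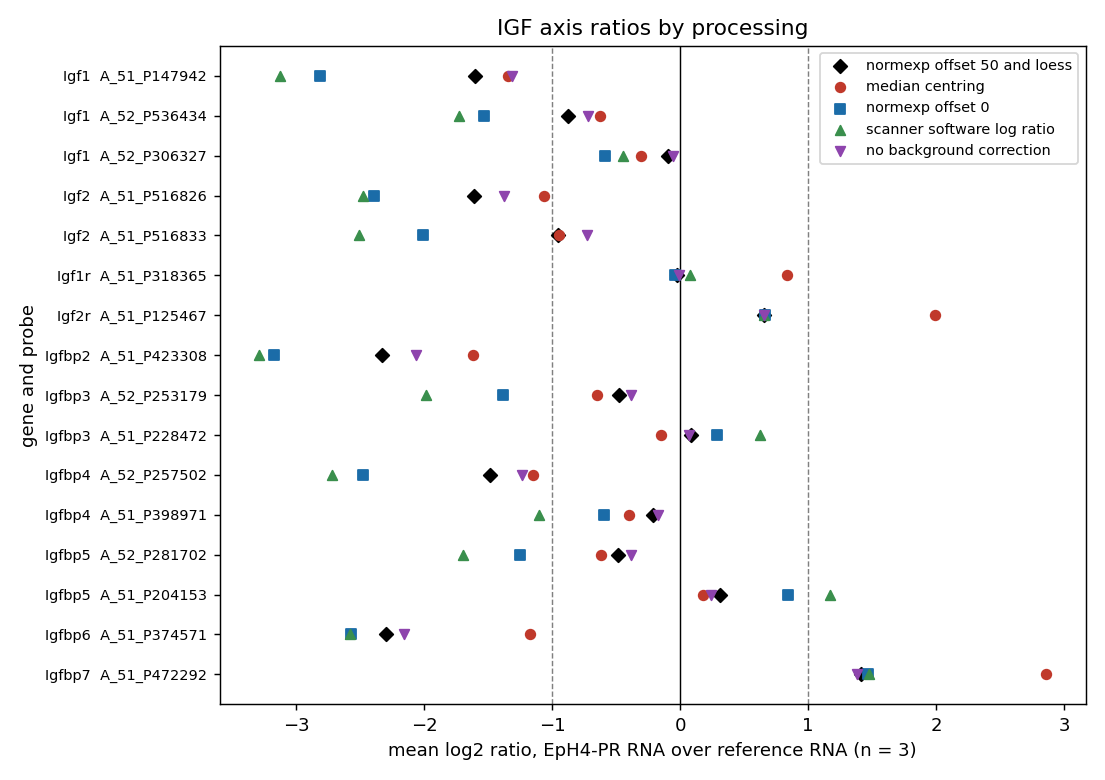
Mean log2 ratio over 3 arrays of the 16 probes under 5 ways of processing, with normexp offset 50 and loess (black) as reported. Dashed lines mark a log2 ratio of 1 either way. Median centring (red) moves the bright probes of Igf1r, Igf2r and Igfbp7 to the right, and normexp offset 0 and the scanner software's log ratio move most dim probes away from 0.

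The other genes of the pathway were described through a list of 63 genes, of which 61 had a probe. Of their 116 probes, 4 were called higher (3.45%) and 12 lower (10.3%), against 2.26% and 3.83% of all probes. The median log2 ratio of the list was -0.02. No call was made for 100 of the probes, and 51 genes had no called probe.

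Among binding protein proteases, Htra1, a secreted serine protease, was higher, with a log2 ratio of 1.54, 1.55 and 1.55 (mean 1.54, adjusted p = 2.42e-05 from limma). Pappa, the protease of Igfbp4, was not well above background in EpH4-PR RNA on any array for either probe. Kazald1, a secreted protein related to the binding proteins, was lower at -2.20 ± 0.08 (SD, n = 3; adjusted p = 2.02e-05 from limma). Among adaptors, Grb10, which binds the activated receptors and dampens their signal, had 1 of 3 probes lower, at -3.19 ± 0.12. Another, not well above background in EpH4-PR RNA on any array, lay at -0.51 ± 0.07, and the last at -0.11 ± 0.23. Irs1, the docking protein of Igf1r and Insr, had probes at 0.14 ± 0.06 and -0.79 ± 0.12, neither called. No probe was matched to Irs2 by symbol or RefSeq accession, so that it was not measured here.

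In the growth hormone branch, Ghr, the growth hormone receptor, had all 3 of its probes lower, at -1.20 ± 0.12, -1.69 ± 0.14 and -2.91 ± 0.08 (SD, n = 3 for each). Of the proteins that bind Igf2 mRNA, Igf2bp2 was lower at -1.47 ± 0.07, and Igf2bp1 had 1 of 3 probes lower, at -1.10 ± 0.13. The other probes of Igf2bp1 lay at 0.44 ± 0.17 and -0.28 ± 0.18, and no direction is given for that gene. In the PI3K branch Pik3cd, a catalytic subunit, had 1 of 2 probes lower (-1.96 ± 0.17), while the other lay at 0.12 ± 0.17 and was not called. Pik3r1, a regulatory subunit, had probes called in both directions, from -3.35 to 1.04. No direction is given for Pik3r1, whose probes disagreed by more than the spread between arrays. In the MAPK branch Hras was higher at 1.44 ± 0.05 (SD, n = 3).

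**Figure D4:**
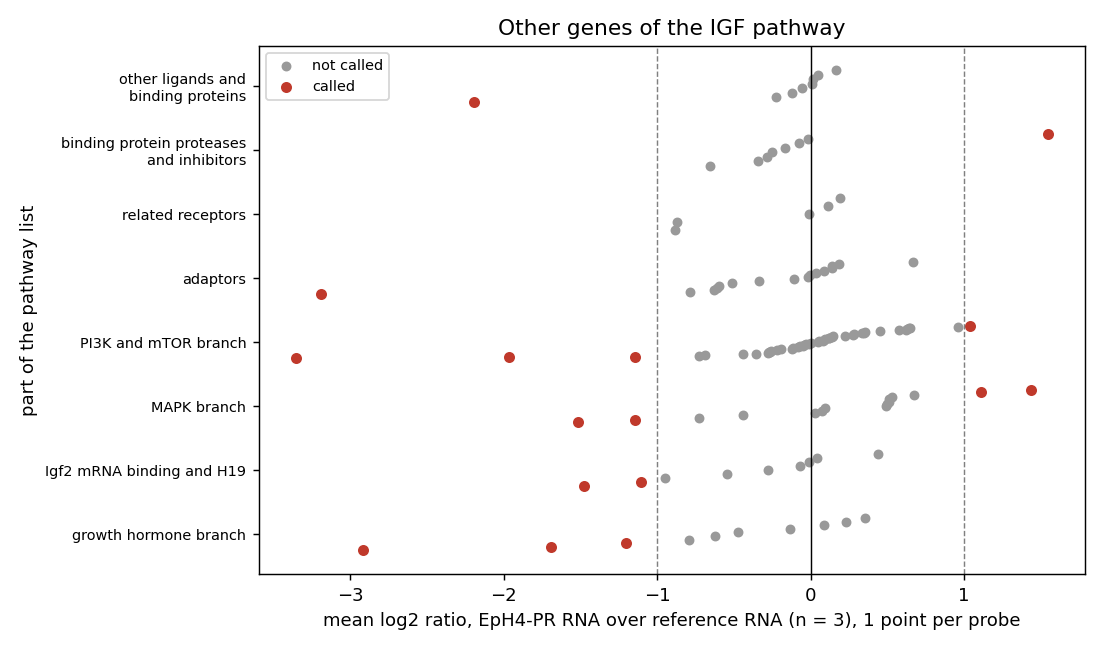
Mean log2 ratio over 3 arrays of the 116 probes of the pathway list, 1 point per probe, by part of the list. Red points are called probes (4 higher and 12 lower) and grey points are not called. The growth hormone branch has 3 red points on the left, all of Ghr, and dashed lines mark a log2 ratio of 1 either way.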

How the data were processed

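The authors deposited the output of Agilent Feature Extraction 8.1.1.1 for each of 3 two-colour arrays, each on its own slide. It gives for every spot a mean and a median intensity and a local background intensity in each channel, and, per the file headers, a log10 ratio of Cy5 over Cy3 that the scanner software had background-subtracted, spatially detrended and dye-normalized. A further table that the authors deposited holds their own fold changes, ratios and p-values for selected probes and was not used.

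Mean intensities were corrected with limma's normexp (offset 50) and normalized within arrays by loess with control and outlier spots at weight 0. Control spots and outlier spots (150, 18 and 3 on replicates 1, 2 and 3) were left out, spots of a probe were averaged, and probes of a gene were kept apart. Each probe's log2 ratio was compared with 0 by lmFit and eBayes (R 4.3.3, limma 3.58.1; Python 3.11.15) over all 41174 probes. The fit was tested on simulated data. Precision is limited by the number of arrays. Negative control spots had a median of 57.3 to 74.1 in Cy5 and 91.8 to 121 in Cy3, above a local background of 39 to 43. The ratios of dim probes of the axis lay nearer 0 with normexp offset 50 than with offset 0. The part of signal left on dim spots in this was not tested.

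The text names all members, the called genes of the pathway list that were well above background in at least 1 channel on all 3 arrays, and Igfbp1, Insr, Irs1 and Irs2. A called gene of the list is not reported here. Pappa and H19 were added after their values were seen. List genes were matched by symbol, older symbol or RefSeq accession (21445 of 23705 such accessions matched, and 12 of the 16 member probes), and the only coordinates given are those of RefSeq promoter windows on GRCm38.p6, since the array files name no build. The members, lists and tests were chosen with earlier results of these data known. Alternatives covered background correction, the scanner software's log ratio, median centring, scaling between arrays, leaving out dim probes, keeping outlier spots, the median intensity, single arrays left out, an intensity trend and the methods' t-test.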

Additional observations from a re-analysis of the deposited data

How the results depend on the processing

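The calls of Igf1 (A_51_P147942), Igf2 (A_51_P516826), Igfbp2, Igfbp4 (A_52_P257502), Igfbp6 and Igfbp7 held under all 14 alternatives run. The Igf1r ratio (-0.02) reversed to 0.84 by median centring and to 0.0773 by the scanner's own log ratio, and ranged from -0.0563 to 0.00285 without single replicates. The Igfbp3 probe A_51_P228472 (0.09) reversed to -0.15 under median centring. Over all probes 932 were called higher and 1578 lower. These counts became 7031 and 708 under median centring, 3125 and 3905 with normexp offset 0, and 3616 and 3887 by the scanner's own log ratio, so that the share of higher calls moved from 37.1% to 90.9%, 44.5% and 48.2%. For the IGF axis, median centring gave 2 higher probes in place of 1, normexp offset 0 gave 9 lower in place of 5, and the scanner's own log ratio 10. A t-test of each probe's log2 ratios against 0, with the same limit of 1 log2 unit, called the same numbers of the axis. These were 1 higher and 5 lower, both at its unadjusted threshold and after Benjamini-Hochberg adjustment. For the pathway list, the 4 higher and 12 lower probes became 25 and 6 under median centring, and 12 higher and 19 lower by the scanner's own log ratio, while normexp offset 0 gave 8 higher. The cause was not tested. The flag for a positive and significant spot and, chosen after seeing the data, the 95th percentile of negative control spots moved the count of detected probes of the axis (13) by less than 1.5 times. Dim spots near the negative control spots limit what can be read of Igfbp3, Igfbp5 and the weaker probes of Igf1, Igf2 and Igfbp4. No paired analysis was possible because there is 1 group, and both RNAs of an array are already paired in its ratio.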
